A study of Homo sapiens with 8 samples.

Results

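The nuclear pore and nuclear transport genes are those that build the pores of the nuclear envelope and the carriers that move cargo through them. They were taken by symbol from the protein-coding genes of the deposited table: the numbered nucleoporins (NUP), the importins (KPNA, KPNB, IPO), the transportins (TNPO1 to TNPO3), the exportins (XPO) with CSE1L, the RAN cycle genes RAN, RANBP1, RANGAP1 and RCC1, and RANBP2, POM121, TPR, NDC1, AAAS, SEH1L and SEC13. This gave 56 of 58825 genes, or of 19968 protein-coding genes, and 53 of the 56 passed the filter on low values. RNA was sequenced from BJ-HRAS cells, which derive from the human skin fibroblast line BJ. There were 4 groups of 2 libraries. They come from clones 15 and 54, which are WT, and from clones 66 and 69, in which SNORA13 was knocked out (KO), each without 4-OHT, (Z)-4-hydroxytamoxifen, and with it at 100 nM for 7 days. By its title, the study asks what a small nucleolar RNA does in ribosome biogenesis and senescence. The replicates were clones, so each genotype rests on 2 clonal lines, and untreated and treated libraries of a genotype come from the same 2 clones. No label describes the HRAS construct, and the reading of the table's minus sign as 4-OHT negative is an inference from the column names.

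Nuclear pores are built from a Y-shaped scaffold on both faces, an inner ring, membrane anchors, channel proteins rich in FG repeats, cytoplasmic filaments and a nuclear basket. Import receptors release cargo in the nucleus when they bind RAN loaded with GTP, and export receptors need the same RAN-GTP to hold theirs. RCC1 loads RAN with GTP on chromatin, and RANGAP1 with RANBP1 triggers hydrolysis in the cytoplasm. In fibroblasts this machinery carries ribosomal proteins inward and ribosome precursors outward, XPO1 being the main receptor for the latter.

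Library totals were 22.06 to 24.91 M reads, and counting error is small for most of these genes. SNORA13 had 4 to 7 reads in each of the 4 WT libraries and 0 in each of the 4 KO libraries. All 10 fibroblast markers passed the filter, with a summed level of 3760 to 4086 RPKM without 4-OHT and 2050 to 2400.1 RPKM with it. The markers did not move together: COL6A3 and VIM were higher in every treated library than in any untreated one, and the others lower. VIM had 781 to 813 RPKM without 4-OHT and 1039 to 1281 with it. DCN had 54.5 to 79.8 RPKM without 4-OHT and 0.885 to 1.1 with it, and LUM 286 to 855 and 12.2 to 23.5. RPKM are reads divided by transcript length and library total, here with TMM scaling between libraries. The epithelial keratins KRT5 and KRT14 were listed at 0 reads, and 3 of 7 epithelial markers passed the filter. The epithelial sum, mostly KRT18, was 780 to 800.1 RPKM in untreated WT, 492 to 549 in untreated KO, 281 to 290.3 in treated WT and 263 to 274 in treated KO clones. Endothelial markers summed to at most 0.411 RPKM, melanocyte markers to at most 1.11 RPKM and immune markers, mostly CD14, to at most 15.5 RPKM. The RNAs RN7SL1 and RN7SL2 took 9.18 to 10.1% of reads in the untreated libraries, 9.72% in the treated library of WT clone 15 and 14.8 to 16.1% in the other 3 treated libraries. Scaling without genes above 1% of the reads of any library is among the alternatives given at the end. The part of these RNAs in the results below was not otherwise tested.

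The transport genes spanned a wide range of levels. Over the 8 libraries the median gene averaged 14.7 RPKM, with 4 genes at 100 RPKM or more, 3 between 50 and 100, 28 between 10 and 50, and 18 below 10. RAN, the GTPase itself, was highest at 159 RPKM, followed by SEC13 at 151, a subunit shared by the pore scaffold and secretory vesicle coats. KPNA2, an importin alpha that reads classical import signals, averaged 143 RPKM and RANBP1 109 RPKM. The lowest of the 53 were KPNA5 at 1.19 RPKM and POM121 at 1.9 RPKM. Of the 3 that failed the filter, NUP210 had at most 5 reads, KPNA7 at most 4 and IPO4 at most 3 in any library. IPO4 shares 69.3% of its exonic bases with AL136295.4 on the same strand, so its count is uncertain.

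Promoters of RAN, CSE1L and NUP107 are printed because RAN, the highest in level, rose in both genotypes, and CSE1L and NUP107 are among the genes whose response differed between them. Each line holds the 250 bases before the RefSeq start on GRCh38.p14, plus strand, 5′ to 3′. The regions are chr12:130871816-130872065 for RAN, chr20:49046062-49046311 for CSE1L and chr12:68686728-68686977 for NUP107. Capitals mark the motifs searched on both strands: the E-box CACGTG, the cell cycle element CHR (TTTGAA or TTCGAA), the CCAAT box (CCAAT) and an ETS core (CCGGAAG).
RAN: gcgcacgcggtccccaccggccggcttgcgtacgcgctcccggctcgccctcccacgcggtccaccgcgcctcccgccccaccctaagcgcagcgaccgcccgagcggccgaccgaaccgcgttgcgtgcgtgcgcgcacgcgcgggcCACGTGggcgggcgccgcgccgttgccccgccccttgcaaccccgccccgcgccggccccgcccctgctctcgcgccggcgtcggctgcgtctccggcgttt
CSE1L: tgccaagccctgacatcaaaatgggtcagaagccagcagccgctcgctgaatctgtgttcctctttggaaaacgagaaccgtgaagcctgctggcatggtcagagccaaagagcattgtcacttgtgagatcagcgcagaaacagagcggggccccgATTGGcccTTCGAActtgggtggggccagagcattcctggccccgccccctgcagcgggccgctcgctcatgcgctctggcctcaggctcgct
NUP107: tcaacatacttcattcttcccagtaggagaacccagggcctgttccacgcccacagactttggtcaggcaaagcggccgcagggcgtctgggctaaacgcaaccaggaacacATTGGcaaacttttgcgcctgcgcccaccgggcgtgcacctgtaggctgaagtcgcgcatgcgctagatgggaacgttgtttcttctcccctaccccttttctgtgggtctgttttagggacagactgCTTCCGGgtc
The E-box of the RAN window begins 102 bases before the start. The CSE1L window has a CCAAT box, on the minus strand, 93 bases before the start and a CHR at 85, with a gap of 3 bases between them. The NUP107 window has a CCAAT box at 138 and an ETS core at 10, both on the minus strand. Of the 56 genes, 49 had promoters in the RefSeq table, 64 promoters in all. A transport gene was counted if any of its promoters matched, while the background shares count single promoters. The units differ, which raises the shares of the transport genes against the background by an amount not measured. The ETS core was in 16 of these 49 (32.7%), against 8.52% of all 35116 promoters in the table and 13.8% of those of the genes tested. The E-box was in 9 of 49 (18.4%, against 6.34% of all promoters and 8.12% of those of the genes tested). The CHR was in 12 (24.5%, against 14.3% and 10.4%) and the CCAAT box in 19 (38.8%, against 32.0% and 32.7%). XPO7, RANBP1, KPNA4, KPNA7, KPNB1, NUP43 and KPNA5 were not matched. GENCODE 29 places its own outermost start inside the windows printed, at 130871879 for RAN, 49046246 for CSE1L and 68686734 for NUP107. By that annotation the RAN E-box and both NUP107 motifs lie after the outermost start, and the CSE1L motifs before it. The distances above hold for the RefSeq start only. A match is a description of letters and not a site of binding.

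In the WT clones 26 of the 53 transport genes rose after 4-OHT and 2 fell. By limma on log2 RPKM with Benjamini-Hochberg adjustment over 16542 genes, at an adjusted p under 0.05, 24.7% of all genes tested rose and 24.2% fell. The other 25 transport genes did not pass. The median log2 difference was 0.29, or 1.22-fold higher, against -0.015 over all genes. The 2 WT groups did not overlap in 36 genes that were higher with 4-OHT (36.1% of all genes) and 5 that were lower (36.7%). In the KO clones 39 rose (27.9% of all genes), 3 fell (27.8%) and 11 did not pass, with a median log2 difference of 0.60, or 1.51-fold, against -0.021 over all genes. The groups did not overlap in 42 genes that were higher (39.6% of all genes) and 4 that were lower (41.2%). Both responses rest on separate libraries: 24 genes rose in both, 1 (NUP133) fell in both, and 15 rose in the KO clones without passing in the WT clones. These joint counts were not made over all genes, so they have no background and do not set the transport genes apart. In bulk RNA a change in the share of cells and a change in RNA per cell cannot be told apart.

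Between genotypes few transport genes passed the test. Without 4-OHT, 4 of the 53 genes were lower in the KO clones (3.73% of all genes) and 1 was higher (2.84%), and 48 did not pass. The 2 genotypes did not overlap in 30 genes that were lower in KO (28.6% of all genes) and 8 that were higher (27.8%). With 4-OHT, 10 were higher in the KO clones (6.77% of all genes), 1 was lower (7.63%) and 42 did not pass, with no overlap in 30 genes that were higher (30.0%) and 11 that were lower (31.4%). The difference between the 2 responses was itself tested: the KO response was the larger in 11 of the 53 genes (4.36% of all genes) and the smaller in 0 (3.22%), and its median was 0.27 on the log2 scale against -0.015 over all genes. The summed level of the 56 genes was 1295 and 1423 RPKM in the untreated WT clones 15 and 54, 1199 and 1229 in the untreated KO clones 66 and 69, 1676 and 1744 in the treated WT clones, and 1854 and 1871 in the treated KO clones.

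**Figure D1:**
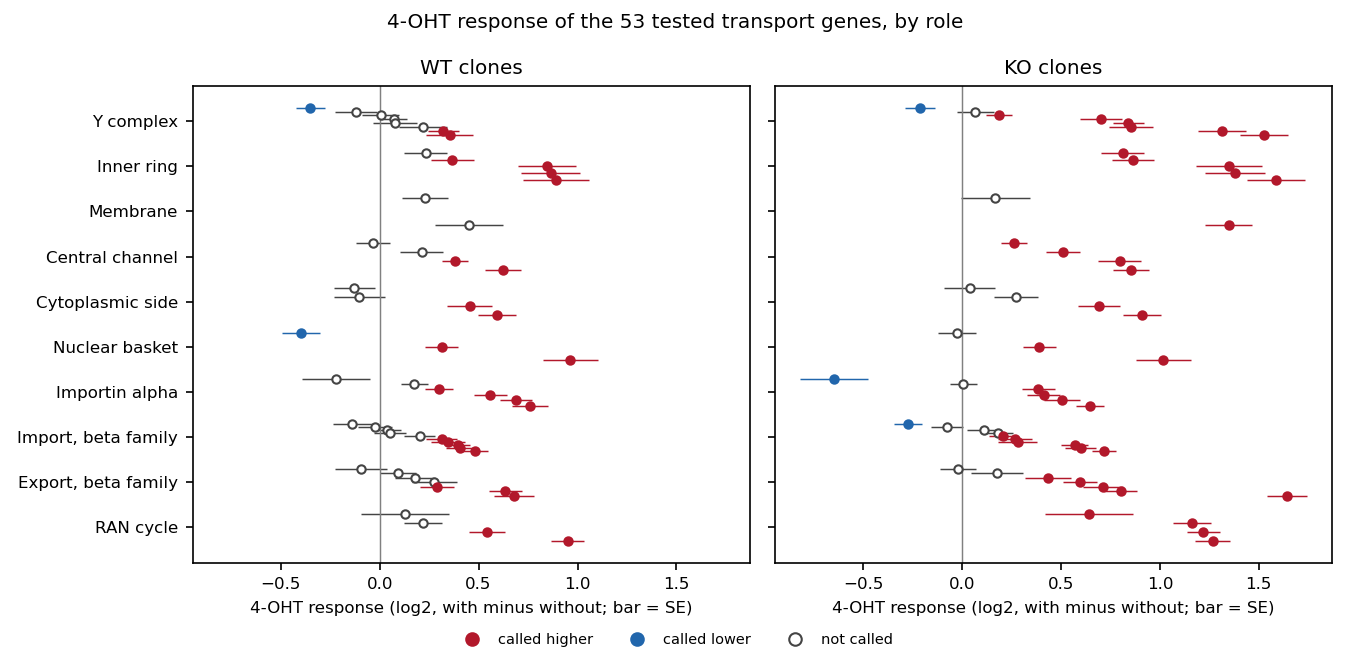
Log2 difference of each transport gene, by role, for the 4-OHT response in WT and in KO clones; each point is 1 gene, bars are the SE of its difference, red points rose, blue points fell and open points did not pass the limma test. The median of the inner ring was 0.85 in the WT and 1.35 in the KO clones, and that of the Y complex 0.07 and 0.77.

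Levels of proliferation markers were read in the same libraries. Of 10 such genes (MKI67, TOP2A, CDK1, CCNA2, CCNB1, BUB1, AURKB, PLK1, MCM2 and PCNA), all 10 were lower in the untreated KO clones (median 2.52-fold), all 10 rose with 4-OHT in the KO clones (5.89-fold), all 10 were higher in the treated KO clones (1.85-fold), and 1, CCNB1, rose in the WT clones. Their median level was 10.5 and 14.9 RPKM in the untreated WT clones 15 and 54, 5.63 and 5.34 in the untreated KO clones 66 and 69, 12.1 and 15.7 in the treated WT clones, and 26.3 and 28 in the treated KO clones. The difference of responses passed for 10 of these 10 markers (median 4.7-fold). Within the untreated WT group, clone 54 exceeded clone 15 in 10 of 10 markers (median 1.47-fold) and in 38 of the 53 transport genes (median 1.08-fold), against 49.8% of all genes. In the other clone pairs the markers did not all go the same way. In untreated KO, clone 69 exceeded clone 66 in 1 of 10 markers and in 34 of the 53 transport genes (median 1.04-fold), against 49.7% of all genes. In treated WT, clone 54 exceeded clone 15 in 10 of 10 markers and 31 transport genes (1.02-fold), against 48.6% of all genes. In treated KO, clone 69 exceeded clone 66 in 7 of 10 markers and 29 transport genes (1.0-fold), against 49.1% of all genes. The part of proliferation in the transport gene results was not tested.

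RAN measured 102 and 112 RPKM in untreated WT clones 15 and 54 and 194 and 220 after 4-OHT. In KO clones 66 and 69 it went from 94.1 and 99.0 to 225 and 224 RPKM. Every treated library lay above every untreated one. RAN rose 1.93-fold in WT (log2 0.95 ± 0.08, SE; limma adjusted p = 0.000116) and 2.33-fold in KO (1.22 ± 0.08, adjusted p = 2.7e-05), and the difference of the responses did not pass (0.27 ± 0.12, adjusted p = 0.213).

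RCC1, the exchange factor that loads RAN with GTP, had 11.6 and 12.4 RPKM in untreated and 13.1 and 14.9 in treated WT clones. In the KO clones it measured 11.4 and 10.6 RPKM untreated and 23.7 and 26.0 treated. The treated KO libraries stood above the other 6, which ranged over a few RPKM. It rose 2.24-fold in KO (log2 1.16 ± 0.10, limma adjusted p = 5.84e-05), did not pass in WT (0.22 ± 0.10, adjusted p = 0.0963), and was 1.76-fold higher in treated KO than treated WT clones (0.82 ± 0.10, adjusted p = 0.00529). The responses differed by 0.94 ± 0.14 (adjusted p = 0.00954). SNHG3 shares 6.2% of the exonic bases of RCC1. Without the treated library of KO clone 69 the genotype difference had an adjusted p of 0.0528 and the difference of responses 0.0518, and without the untreated one the latter had 0.0522.

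RANBP1, which helps release RAN-GTP from carriers, had 76.5 and 88.5 RPKM in untreated WT and 120 and 120 in treated WT clones. In KO clones it had 70.5 and 65.9 RPKM untreated and 157 and 171 treated. The 4 groups did not overlap, with untreated KO lowest and treated KO highest. It rose 1.46-fold in WT (limma adjusted p = 0.00205) and 2.41-fold in KO (adjusted p = 3.01e-05). The responses differed by 0.72 ± 0.13 on the log2 scale (adjusted p = 0.0193), and treated KO clones were 1.37-fold above treated WT clones (adjusted p = 0.0197). The difference of responses did not pass without 5 of the 8 libraries, at most at 0.0909 (without the untreated KO clone 69), and the genotype difference without any of the 4 treated libraries, at most at 0.124 (without the treated KO clone 69).

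RANGAP1, the activator of RAN's GTPase, was spread within the untreated WT group: 77.4 RPKM in clone 15 and 132 in clone 54. It had 102 and 119 RPKM in treated WT clones, 64.6 and 58.3 in untreated KO clones and 99.6 and 92.1 in treated KO clones. The WT groups overlapped and the KO groups did not. It rose 1.56-fold in KO (log2 0.64 ± 0.22, limma adjusted p = 0.0408), a call that ended without any of 6 of the 8 libraries (the 4 KO and the 2 treated WT libraries, adjusted p = 0.0513 to 0.169). The SE is shared over the 4 groups, so it includes the spread of the untreated WT clones. Over all alternatives the KO difference was 0.559 to 0.714 on the log2 scale. The KO call held with only the libraries compared and ended without the filter (0.103) and with limma-voom (0.0695). RANGAP1 did not pass in WT (0.13 ± 0.22, adjusted p = 0.666).

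**Figure D2:**
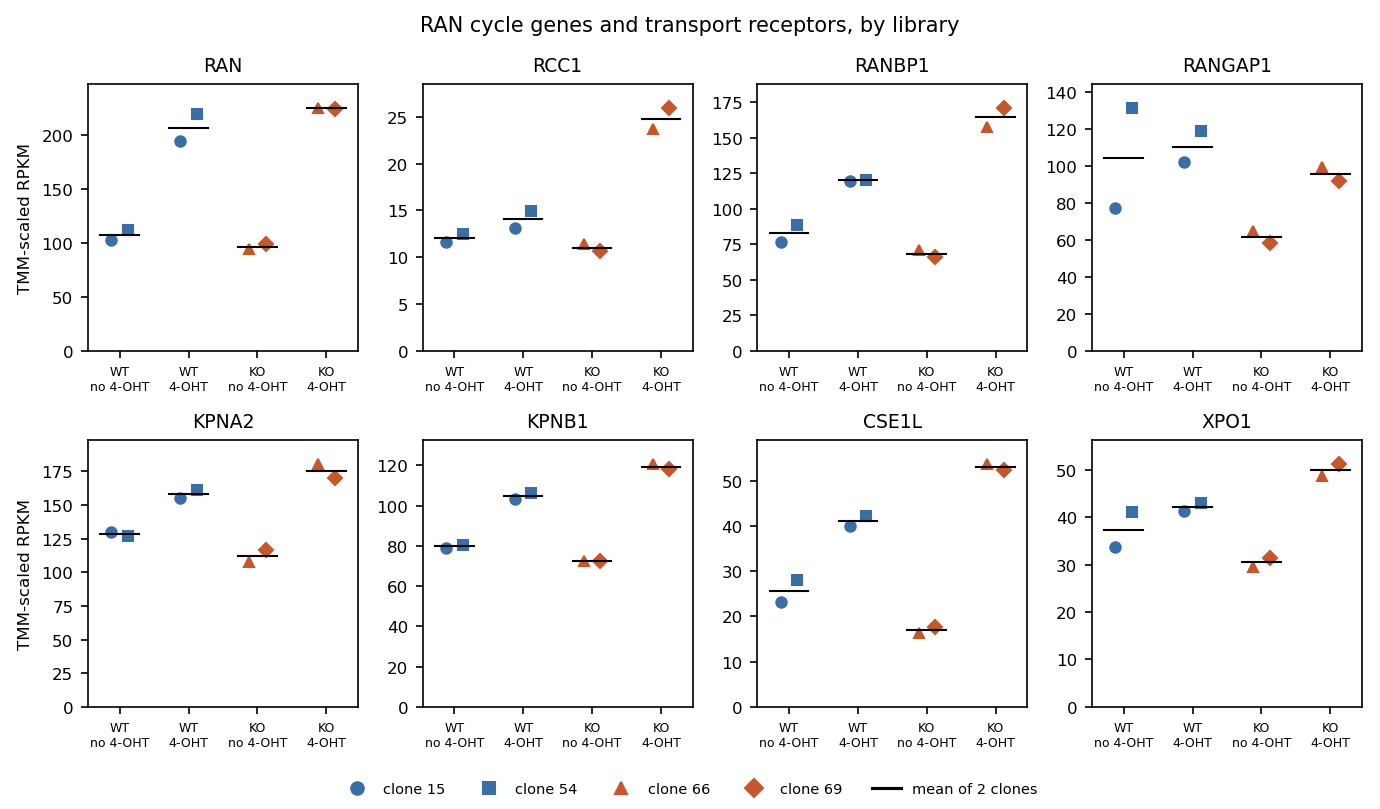
TMM-scaled RPKM of RAN cycle genes and carriers in each of the 8 libraries; points are single libraries, shaped by clone, and horizontal bars the mean of 2 clones, on axes that start at 0. For CSE1L the treated KO libraries sit at 53.7 and 52.4 RPKM and the untreated ones at 16.3 and 17.7, outside the WT range on both sides.

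Of the 7 importin alpha genes, which bridge classical import signals to KPNB1, 6 were tested, and 4 rose in each genotype: KPNA1, KPNA2, KPNA3 and KPNA4. KPNA2 had 130 and 127 RPKM in untreated and 155 and 161 in treated WT clones, and 107 and 117 in untreated and 180 and 170 in treated KO clones. All treated libraries were above all untreated ones. It rose 1.23-fold in WT (limma adjusted p = 0.011) and 1.56-fold in KO (adjusted p = 0.000229), the first call ending without the treated WT clone 54 (adjusted p = 0.0594). KPNA4 rose 1.69-fold in WT (adjusted p = 0.000482) and 1.42-fold in KO (adjusted p = 0.00257), and KPNA3 1.61-fold (adjusted p = 0.000472) and 1.31-fold (adjusted p = 0.00577). KPNA1, with 16.3% of its exonic bases opposite another gene, rose 1.47-fold (adjusted p = 0.00134) and 1.33-fold (adjusted p = 0.00455).

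KPNA5 went the other way. It measured 1.37 and 1.31 RPKM in untreated and 1.07 and 1.21 in treated WT clones, and 1.31 and 1.51 in untreated and 0.861 and 0.862 in treated KO clones. The treated KO libraries were the lowest of the 8. It fell by 0.65 ± 0.17 on the log2 scale in KO, or 1.57-fold (limma adjusted p = 0.0146), and did not pass in WT. The call ended without the untreated KO clone 69 (adjusted p = 0.0873) and without either treated KO library (adjusted p = 0.0574 and 0.0604). KPNA6 did not pass in either response. It had 25.8 and 24.0 RPKM in untreated WT, 28.6 and 27.7 in treated WT, 23.1 and 23.5 in untreated KO and 23.6 and 23.2 in treated KO clones. The treated WT libraries were the highest, and KPNA6 was 1.2-fold lower in treated KO than treated WT clones (limma adjusted p = 0.0443). That call ended without 6 of the 8 libraries, at most at an adjusted p of 0.21 (without the treated KO clone 69), and when the scaling used library size alone (0.0713).

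Among the 11 import receptors of the beta family, 10 were tested: 5 rose in WT, 6 rose and 1 fell in KO. KPNB1, the carrier that works with the importin alphas, had 78.9 and 80.4 RPKM in untreated and 103 and 106 in treated WT clones. In KO clones it had 72.5 and 72.3 RPKM untreated and 121 and 118 treated. The 4 groups did not overlap. It rose 1.31-fold in WT (limma adjusted p = 0.00151) and 1.65-fold in KO (adjusted p = 6.51e-05), and neither the difference of responses (adjusted p = 0.0664) nor the genotype difference in treated clones (adjusted p = 0.0835) passed. TNPO3, which imports splicing factors rich in serine and arginine, rose 1.4-fold in WT (adjusted p = 0.00103) and 1.48-fold in KO (adjusted p = 0.000338). IPO9 rose 1.52-fold in KO (adjusted p = 0.000488) and did not pass in WT. IPO13 rose 1.27-fold in WT, a call lost without the untreated WT clone 54 (0.0562) or the treated WT clone 15 (0.0694), and 1.2-fold in KO, lost without any of the 4 KO libraries (0.0527 to 0.147) and with library size as the only scaling (0.0751). IPO11 rose 1.22-fold in KO, which was lost without 6 of the 8 libraries (at most 0.234, without the untreated KO clone 66) and with clone as a block (0.0535). TNPO2 rose 1.24-fold in WT, which was lost without the untreated WT clone 54 (0.0612) or the treated WT clone 15 (0.0758) and with library size as the only scaling (0.0571). The difference of responses passed for none of these 4 genes. IPO11 shares 22.6% of its exonic bases with KIF2A and LRRC70 on the same strand.

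IPO7, an importer of ribosomal proteins and histones, was the 1 transport gene higher in untreated KO clones. It had 43.6 and 41.0 RPKM in untreated WT, 50.8 and 54.9 in untreated KO, 56.2 and 55.9 in treated WT and 61.3 and 60.8 in treated KO clones. Untreated KO clones were 1.25-fold above untreated WT clones (limma adjusted p = 0.0421) with no overlap. The call ended without 7 of the 8 libraries (all except the untreated WT clone 15), at most at an adjusted p of 0.234. TNPO1, the receptor for hnRNP A1 and related cargo, was the member of its role that fell. It had 43.9 and 44.2 RPKM in untreated and 46.8 and 43.7 in treated WT clones, and 46.6 and 49.4 in untreated and 40.6 and 38.9 in treated KO clones. The WT groups overlapped and the KO groups did not, and it fell 1.21-fold in KO (limma adjusted p = 0.0134), a call lost without either library of KO clone 69 (adjusted p = 0.0831 untreated, 0.0881 treated). IPO5 and IPO8 passed in no comparison.

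Of the 7 export receptors, 3 rose in WT and 5 in KO. CSE1L, which returns importin alpha to the cytoplasm, had 23.3 and 28.2 RPKM in untreated WT and 40.0 and 42.2 in treated WT clones. In the KO clones it had 16.3 and 17.7 RPKM untreated and 53.7 and 52.4 treated. The 4 groups did not overlap, with the untreated KO clones lowest and the treated KO clones highest. CSE1L rose 1.6-fold in WT (log2 0.68 ± 0.10, limma adjusted p = 0.00123) and 3.12-fold in KO (1.64 ± 0.10, adjusted p = 1.83e-05), and the responses differed by 0.96 ± 0.14 (adjusted p = 0.0105). It was 1.51-fold lower in untreated KO than untreated WT clones (adjusted p = 0.0214), and the treated comparison narrowly missed (1.29-fold higher, adjusted p = 0.0513). The difference of responses had an adjusted p of 0.0544 without the untreated KO clone 66 and 0.0516 without the treated KO clone 69. The untreated genotype call ended without 5 of the 8 libraries, among them the untreated WT clone 54 (0.053) and the untreated KO clone 66 (0.14).

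XPO1, the receptor for leucine-rich export signals, had 33.7 and 41.1 RPKM in untreated and 41.3 and 42.9 in treated WT clones, and 29.4 and 31.5 in untreated and 48.6 and 51.2 in treated KO clones. The WT groups lay close to each other without overlap, and the KO groups were far apart. It rose 1.64-fold in KO (limma adjusted p = 0.000802) and did not pass in WT (log2 0.18 ± 0.10, adjusted p = 0.188). XPO5, which exports precursor miRNAs, rose in both genotypes by 1.55-fold (adjusted p = 0.00065) and 1.74-fold (adjusted p = 0.000157). XPO7 rose 1.22-fold in WT and 1.51-fold in KO, the WT call being lost without the untreated WT clone 54 (0.119) or either treated WT library (0.121 and 0.056) and with library size as the only scaling (0.103). XPO4 rose 1.35-fold in KO (adjusted p = 0.0151), which was lost without the untreated KO clone 66 (0.107) or the treated KO clone 69 (0.073). XPO6, the exporter of actin, and XPOT, the exporter of tRNA, passed in neither response.

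Of the 8 Y complex genes, 2 rose and 1 fell in WT, and 6 rose and 1 fell in KO. NUP85 had 12.2 and 14.7 RPKM in untreated and 16.3 and 18.0 in treated WT clones, and 8.58 and 8.16 in untreated and 22.4 and 26.3 in treated KO clones. The 4 groups did not overlap. NUP85 rose 1.28-fold in WT (limma adjusted p = 0.0426) and 2.88-fold in KO (log2 1.53 ± 0.12, adjusted p = 4.7e-05). It was 1.59-fold lower in KO without 4-OHT (adjusted p = 0.0248) and 1.41-fold higher in KO with it (adjusted p = 0.0345), and the responses differed by 1.17 ± 0.17 (adjusted p = 0.00954). That difference ended without 1 library, the untreated KO clone 69 (0.0522). The calls in WT and in treated clones each ended without 6 of the 8 libraries, at most at 0.192 and 0.185, and the untreated genotype call without 3, at most at 0.164 (without the untreated KO clone 69).

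NUP107 had 5.38 and 6.53 RPKM in untreated and 6.49 and 7.37 in treated WT clones, and 3.99 and 4.26 in untreated and 10.1 and 10.7 in treated KO clones. The WT groups overlapped, and the KO groups lay below and above them. It rose 2.48-fold in KO (log2 1.31 ± 0.12, limma adjusted p = 9.61e-05), and the responses differed by 1.10 ± 0.17 (adjusted p = 0.0127). The difference ended without 4 of the 8 libraries, at most at 0.0648 (without the treated KO clone 69). NUP37 had 8.24 and 8.02 RPKM in untreated and 7.00 and 7.98 in treated WT clones, against 6.72 and 7.14 in untreated and 10.6 and 12.1 in treated KO clones. It was 1.51-fold higher in treated KO than treated WT clones (limma adjusted p = 0.0134), which was lost without the treated WT clone 15 (0.0798) or the treated KO clone 69 (0.0971). The responses also differed for NUP160 by 0.78 ± 0.16 (adjusted p = 0.0293) and for NUP43 by 0.52 ± 0.11 (adjusted p = 0.0348), and these calls ended without 6 and 7 of the 8 libraries.

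NUP133, a stalk subunit of the same complex, was lower after 4-OHT in both genotypes. It had 14.3 and 14.2 RPKM in untreated and 11 and 11.3 in treated WT clones, and 12.5 and 13.1 in untreated and 11.4 and 10.7 in treated KO clones. The treated libraries of both genotypes lay below all untreated ones. NUP133 fell 1.27-fold in WT (limma adjusted p = 0.00667) and 1.16-fold in KO (adjusted p = 0.0454), the second call ending without 6 of the 8 libraries (at most 0.234, without the treated KO clone 69) and with clone as a block (0.0752). SEH1L did not pass in either response, and SEC13 rose 1.14-fold in KO (adjusted p = 0.0424), which ended with clone as a block (0.0536) and without 5 of the 8 libraries, at most at 0.209 (without the untreated KO clone 66).

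**Figure D3:**
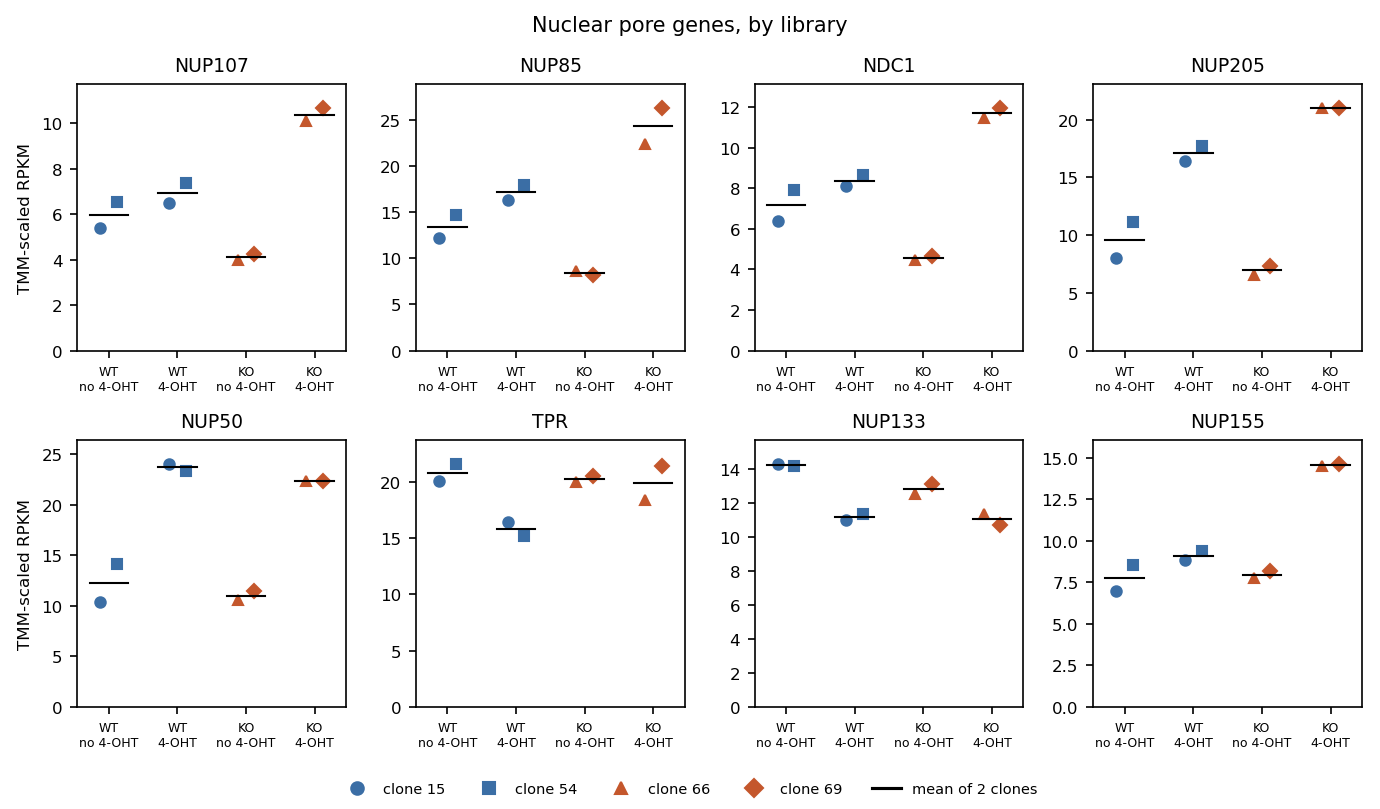
TMM-scaled RPKM of 8 nuclear pore genes in each of the 8 libraries; points are single libraries, shaped by clone, and horizontal bars the mean of 2 clones, on axes that start at 0. NUP107, NUP85, NDC1 and NUP205 are lowest in the untreated and highest in the treated KO clones, NUP155 is highest in the treated KO clones, and TPR is lowest in the treated WT clones.

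All 5 inner ring genes rose in KO and 4 of 5 in WT, with median differences of 1.35 and 0.85 on the log2 scale. NUP205, a large scaffold protein, had 8.03 and 11.1 RPKM in untreated and 16.5 and 17.7 in treated WT clones, and 6.58 and 7.29 in untreated and 21.0 and 21.0 in treated KO clones. No group overlapped another. It rose 1.8-fold in WT (limma adjusted p = 0.00251) and 3.0-fold in KO (log2 1.59 ± 0.15, adjusted p = 9.52e-05), and the difference of responses did not pass (0.74 ± 0.21, adjusted p = 0.0754). NUP188, its paralogue, had 5.15 and 7.34 RPKM in untreated and 11.3 and 11.7 in treated WT clones, and 5.75 and 4.82 in untreated and 13.9 and 13.2 in treated KO clones. It rose 1.85-fold (limma adjusted p = 0.00359) and 2.54-fold (adjusted p = 0.000381), with untreated groups that overlapped each other.

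NUP35, which bends the membrane at the pore, rose 1.82-fold in WT (limma adjusted p = 0.00265) and 2.6-fold in KO (adjusted p = 0.000211). NUP93, the anchor of the channel proteins, rose 1.29-fold in WT (adjusted p = 0.0267) and 1.76-fold in KO (adjusted p = 0.000584), the WT call ending without 4 of the 8 libraries (at most 0.123, without the untreated WT clone 15). NUP155 had 6.99 and 8.54 RPKM in untreated and 8.83 and 9.38 in treated WT clones, and 7.75 and 8.16 in untreated and 14.5 and 14.6 in treated KO clones. The treated KO libraries stood apart from the other 6. NUP155 was 1.59-fold higher in treated KO than treated WT clones (log2 0.67 ± 0.11, limma adjusted p = 0.0106), while untreated clones overlapped and the difference of responses narrowly missed (0.63 ± 0.15, adjusted p = 0.051). The treated call ended without the treated WT clone 15 (0.072), KO clone 66 (0.0513) or KO clone 69 (0.0792).

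NDC1, a membrane protein that anchors the pore, had 6.37 and 7.93 RPKM in untreated and 8.08 and 8.63 in treated WT clones, and 4.44 and 4.64 in untreated and 11.4 and 12 in treated KO clones. The KO groups lay below and above all WT libraries. NDC1 rose 2.54-fold in KO (log2 1.35 ± 0.12, limma adjusted p = 7e-05) and the responses differed by 1.12 ± 0.17 (adjusted p = 0.0103). It was 1.55-fold lower in untreated KO clones (adjusted p = 0.0259) and 1.4-fold higher in treated ones (adjusted p = 0.0354), calls that ended without 5 and 6 of the 8 libraries. The difference of responses ended without the untreated KO clone 66 (0.0529) and without the treated KO clone 69 (0.0554). POM121 passed in no comparison, and its count is uncertain because of the near-identical copy POM121C, which rose 1.69-fold in WT (adjusted p = 0.0156).

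All 4 channel genes rose in KO and 2, NUP58 and NUP98, in WT. NUP58 rose 1.54-fold in WT (limma adjusted p = 0.00108) and 1.81-fold in KO (adjusted p = 0.000174). NUP98, which carries FG repeats and also binds mRNA export factors, rose 1.3-fold in WT (adjusted p = 0.00219) and 1.2-fold in KO (adjusted p = 0.0101). The KO call for NUP98 ended without either untreated KO library or the treated KO clone 66 (adjusted p = 0.0534 to 0.0653). NUP62, the central channel protein, rose 1.74-fold in KO (adjusted p = 0.000635) and shares 12% of its exonic bases with IL4I1 and AC011452.1. The responses differed for NUP54, a partner of NUP62, by 0.54 ± 0.12 (adjusted p = 0.0394), which ended without 6 of the 8 libraries.

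On the cytoplasmic side, NUP88 rose 1.51-fold in WT (limma adjusted p = 0.00181) and 1.88-fold in KO (adjusted p = 0.000174), and 18.7% of its exonic bases lie opposite another gene. RANBP2, the filament protein that binds RAN, rose 1.37-fold in WT (adjusted p = 0.0125) and did not pass in KO. Its count is uncertain because of the RGPD copies, and the WT call ended without the untreated (0.055) or treated (0.0801) library of clone 15. AAAS, which NDC1 anchors at the pore, rose 1.62-fold in KO (adjusted p = 0.00105), was 1.45-fold lower in untreated KO clones (adjusted p = 0.0316), and its responses differed by 0.82 ± 0.15 (adjusted p = 0.021). The last 2 of these calls each ended without 5 of the 8 libraries, at most at 0.203 and 0.0914 (both without the untreated KO clone 69). NUP214 passed in no comparison.

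The 3 basket genes divided in WT. NUP50, a cofactor of importin alpha, had 10.3 and 14.2 RPKM in untreated and 24.0 and 23.4 in treated WT clones, and 10.5 and 11.4 in untreated and 22.4 and 22.3 in treated KO clones. All treated libraries were above all untreated ones, and the genotypes lay close together. NUP50 rose 1.95-fold in WT (log2 0.96 ± 0.14, limma adjusted p = 0.00104) and 2.03-fold in KO (1.02 ± 0.14, adjusted p = 0.000605). TPR, the coiled-coil protein of the basket, had 20.1 and 21.6 RPKM in untreated and 16.4 and 15.2 in treated WT clones, and 20.0 and 20.5 in untreated and 18.4 and 21.4 in treated KO clones. The treated WT libraries were the lowest, and the KO groups overlapped. TPR fell 1.32-fold in WT (-0.40 ± 0.10, limma adjusted p = 0.0113), ending without the treated WT clone 54 (0.0662), and in KO it did not pass (-0.03 ± 0.10, adjusted p = 0.825). The difference of its responses did not pass either (adjusted p = 0.144). NUP153 rose in both genotypes, by 1.24-fold (adjusted p = 0.018) and 1.31-fold (adjusted p = 0.00577). Its WT call ended without the untreated WT clone 54 (0.0628) or the treated WT clone 15 (0.105).

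**Figure D4:**
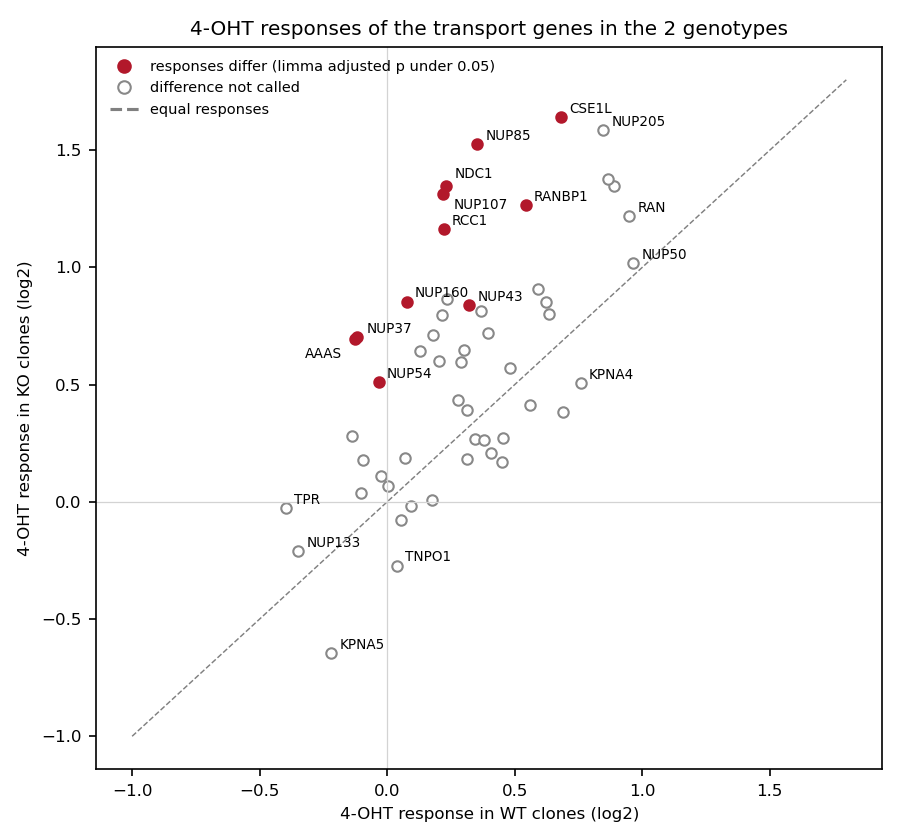
4-OHT response (log2 RPKM difference) in WT clones on the horizontal axis against KO clones on the vertical axis for the 53 transport genes; filled points are the 11 whose responses differed by the limma test and the dashed line marks equal responses. NUP85, NDC1 and NUP107 lie far above the line, and NUP50 and RAN near it.

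By role, the difference of responses passed for 5 of the 8 Y complex genes, 2 of 4 RAN cycle genes, 1 of 7 export receptors, 1 of 2 membrane nucleoporins, 1 of 4 channel genes and 1 of 4 genes of the cytoplasmic side. It passed for 0 of 5 inner ring, 0 of 3 basket, 0 of 6 importin alpha and 0 of 10 beta family import genes. Over all genes tested the KO response was the larger in 4.36%, so a count of 0 among so few genes does not set a role apart. All 5 inner ring differences were positive, from 0.444 to 0.74 on the log2 scale. The median difference of responses was 0.65 on the log2 scale for the Y complex, 0.62 for the RAN cycle and 0.52 for the inner ring. It was 0.01 for the beta family import receptors and -0.21 for the importin alphas, where 1 of 6 was positive. Over all genes tested 8053 of 16542 were positive, with a median of -0.015. An adjusted p under 0.05 was kept in all alternative settings, each library left out among them, by 18 of the 28 WT calls and 32 of the 42 KO calls. The same held for 0 of the 11 differences of responses, 0 of the 11 genotype calls with 4-OHT and 0 of the 5 without. The count of differences fell to 1 without the treated KO clone 69, to 2 without either untreated KO library to 4 without the treated WT clone 15 and to 7 without the treated KO clone 66, and rose to 18 without the untreated WT clone 15. Over all genes the count of larger KO responses moved the same way, from 721 to 211 without the treated KO clone 69, to 298 and 279 without the untreated KO clones 66 and 69, to 340 without the treated WT clone 15, to 363 without the treated KO clone 66 and to 1139 without the untreated WT clone 15. The genotype count with 4-OHT (10 higher) fell to 0 without the treated KO clone 69, to 1 without the treated WT clone 15, to 2 without the treated KO clone 66 and to 6 without the treated WT clone 54, and rose to 16 without the untreated WT clone 54. Over all genes it went from 1120 to 64, 189, 341, 722 and 1478 without the same libraries. The count lower without 4-OHT (4) fell to 0 without either untreated KO library or the untreated WT clone 54 and to 1 without either treated KO library, and rose to 10 without the untreated WT clone 15. Over all genes it went from 617 to 17 and 4 without the untreated KO clones 66 and 69, to 267 without the untreated WT clone 54, to 293 and 300 without the treated KO clones 66 and 69, and to 1013 without the untreated WT clone 15. In each of these cases the count over all genes moved in the same direction as that of the transport genes. The 3 calls lower in KO fell to 0 without either library of clone 69 and to 1 without the treated KO clone 66. The 2 calls lower in WT fell to 1 without the treated WT clone 54.

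**Figure D5:**
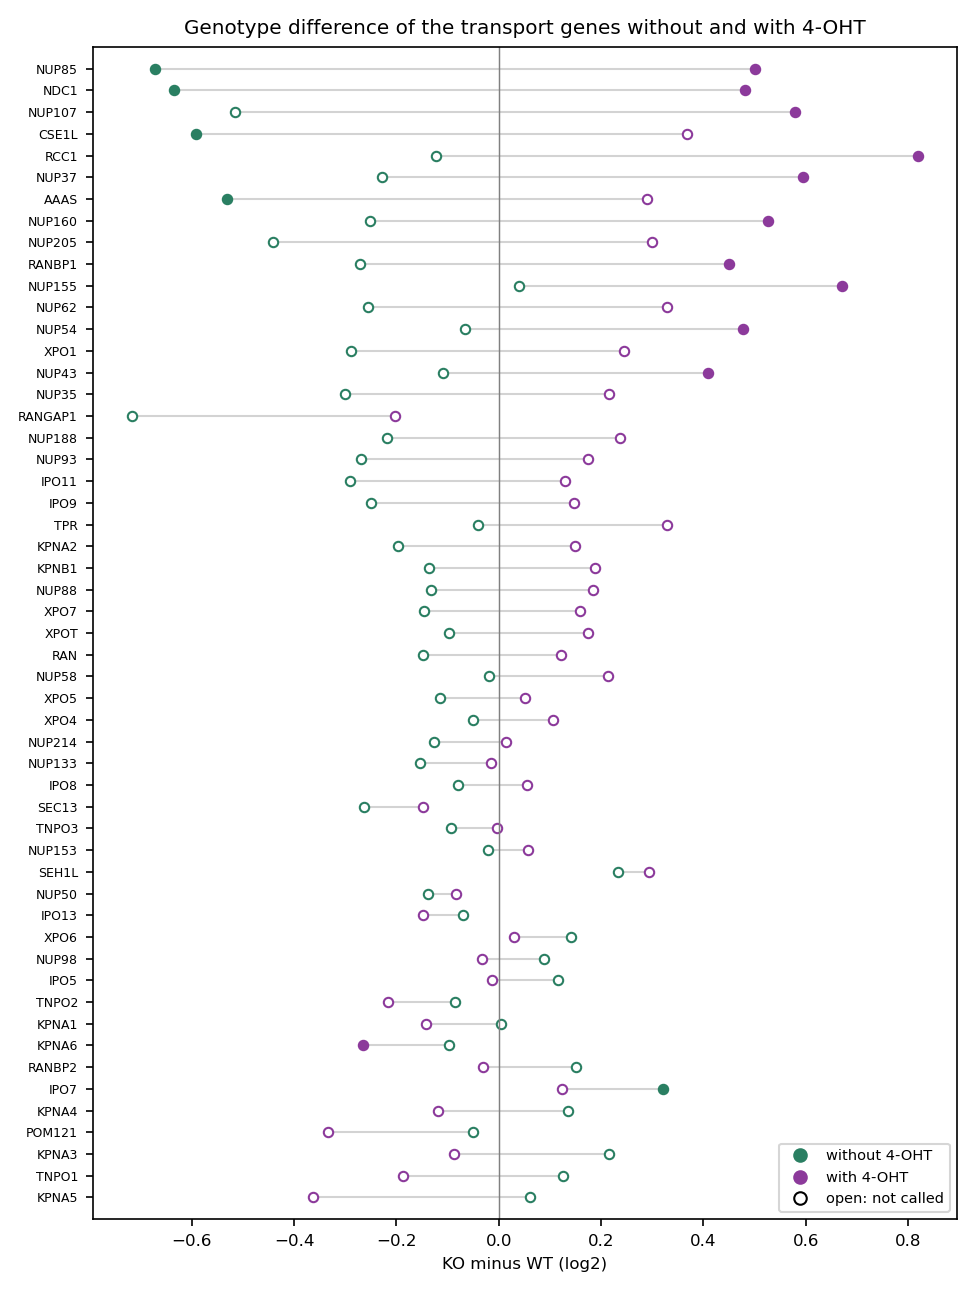
Log2 difference between KO and WT clones for each transport gene, without 4-OHT and with it, on the same scale; each row is 1 gene with 1 point for each comparison, and filled points passed the limma test. Without 4-OHT 12 of 53 genes were positive, with a median of -0.12, and with it 36 were, with a median of 0.15. Over all 16542 genes tested, 8216 were positive without 4-OHT and 8116 with it, with medians of -0.002 and -0.006.

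Other genes of the pathway were listed apart from the 56. Their counts stand against the shares of all genes that rose (24.7% in WT, 27.9% in KO), fell (24.2% and 27.8%), were higher in treated KO clones (6.77%) or had the larger KO response (4.36%). Of 24 tested genes of the pore, its assembly and RAN cofactors, 9 rose and 3 fell in WT, and 10 rose and 4 fell in KO. Their responses differed for 1, GLE1 (1.35-fold, limma adjusted p = 0.0479), an activator of mRNA release at the pore. Of 21 tested mRNA export genes, 6 rose and 3 fell in WT, 11 rose in KO, 7 were higher in treated KO clones, and responses differed for 5: DDX39A, THOC3, CHTOP, ALYREF and NXT1. DDX39A, an export helicase, had 9.89 and 13.1 RPKM in untreated and 21.4 and 26.5 in treated WT clones, and 7.35 and 7.31 in untreated and 43.1 and 42.1 in treated KO clones. Its 4 groups did not overlap. It rose 2.08-fold in WT (adjusted p = 0.000889) and 5.74-fold in KO (adjusted p = 1.49e-05), and the responses differed by 1.46 ± 0.21 (adjusted p = 0.00925). Of 8 adaptors of ribosome precursor export, 6 rose in WT and 4 in KO, and the responses differed for 0. PNO1, which acts in maturation and export of the small subunit, had 4.61 and 4.52 RPKM in untreated and 13.6 and 12 in treated WT clones, and 5.55 and 5.68 in untreated and 11.2 and 9.94 in treated KO clones. It rose 2.76-fold in WT (adjusted p = 3.84e-05) and 1.86-fold in KO (adjusted p = 0.000224). Its treated libraries were all above its untreated ones, and the difference of its responses did not pass (-0.57 ± 0.14, adjusted p = 0.0549).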

How the data were processed

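Total RNA of 8 libraries was sequenced. The submitters' processing notes name STAR, featureCounts, edgeR and the GRCh38 build. Their versions and the strand setting are not given in the notes used here. The authors' table holds RPKM for 58870 genes, as deposited and judged from its values: with GENCODE 29 transcript lengths and 1 total per library, 100.0% of checked values were whole reads within 0.1 read. The lengths of 6676 genes were inferred from their own value steps, and the second copies of 45 pseudoautosomal genes were dropped.

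Genes with at least 0.425 CPM in 2 libraries and 15 reads in all were kept (16542). RPKM were scaled by TMM, written for this work (factors 0.9536 to 1.029), and log2(RPKM + 0.1) was fitted with limma 3.58.1 (trend and robust, statmod 1.5.0, R 4.3.3) as 4 group means over all 8 libraries with 4 residual degrees of freedom. Fold changes are on that scale and are too small for genes of low level. The threshold was a Benjamini-Hochberg adjusted p of 0.05 over all genes tested. The script was tested on simulated data.

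Same-numbered libraries come from the same clone, which pairs them. Deviations from group means correlated at 0.309 between the libraries of the WT clones and 0.005 for the KO clones. Replicate libraries differed beyond counting noise (chi-square over degrees of freedom 5.8 to 32.25). P-values of the main fit rest on the spread between the 2 clones of a group, pooled over all 4 groups and moderated across genes. They do not measure the spread of the compared groups alone. Values of each library are given for the RAN cycle, KPNA2, KPNB1, CSE1L and XPO1, and for up to 3 genes per direction and comparison with the largest fold among calls without overlap, and genes moving against their role. Members, lists and roles were chosen with earlier results of these data known.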

Additional observations from a re-analysis of the deposited data

Results flagged for a closer look

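By the limma test of the difference of responses over 16542 genes, the 4-OHT response differed between KO and WT clones for 11 of the 53 transport genes. In each the KO response was the larger. Over all genes tested it was the larger in 4.36% and the smaller in 3.22%. Of these 11 calls, 0 were kept in all alternative settings. On the log2 scale the KO response exceeded the WT response by 1.17 for NUP85, 1.12 for NDC1 and 1.10 for NUP107. The excess was 0.96 for CSE1L and 0.94 for RCC1. It was 0.82 for NUP37, 0.82 for AAAS, 0.78 for NUP160 and 0.72 for RANBP1. The smallest were 0.54 for NUP54 and 0.52 for NUP43.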

How the results depend on the processing

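The alternatives were a pseudocount of 1, no filter on low values, library size as the only scaling and limma-voom on the recovered reads. Others were scaling without genes above 1% of the reads of any library and clone as a replicate block. A fit of only the libraries compared was also made, and each library was left out in turn. An edgeR fit was listed for the case that the deposited values were raw counts. As they are RPKM it was not run, although the recovered reads would have allowed it. No called gene changed direction under these alternatives. Without the filter, the genes higher in KO with 4-OHT numbered 5 and the differences of responses 4, against 10 and 11. Over all genes, 36398 without the filter, those higher in KO with 4-OHT numbered 449, against 1120 of 16542. The larger KO responses over all genes numbered 305, against 721. The genes lower in KO with 4-OHT numbered 0 without the filter, with library size alone, without abundant genes in the scaling and with only the libraries compared, against 1. Over all genes they numbered 545, 1066, 1181 and 1034 in these settings, against 1262. Without 4-OHT the lower genes numbered 0 without the filter and with only the libraries compared, against 4, and the higher ones 0 under these and with library size alone, against 1. Over all genes the lower ones numbered 161 and 187, against 617, and the higher ones 84, 118 and 367, against 470. With clone as a replicate block, which pairs each clone's libraries, 26 genes rose in WT, 36 rose and 2 fell in KO, and 14 differences were called. Over all 16542 genes the block gave 4157 that rose in WT, and 4629 that rose and 4680 that fell in KO. The main fit gave 4089, 4612 and 4606. The KO response was the larger in 783 and the smaller in 602 with the block, against 721 and 532. The block ended the KO calls of IPO7, IPO11, NUP133 and SEC13 and the difference for NUP43 (0.052). Leaving out 1 library gave 19 to 27 genes higher and 1 to 2 lower in WT, 32 to 40 higher and 0 to 3 lower in KO, 0 to 16 higher and 0 to 1 lower in KO with 4-OHT, 0 to 1 higher and 0 to 10 lower without it, and 1 to 18 differences of responses. Such fits hold 1 group of 1 library, assumed to vary like the others.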
